A study of Mus musculus with 8 samples.

Results

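The 10 genes described here, Ern2, Xbp1, Creb3l1, Hspa5, Hsp90b1, Pdia4, Pdia6, Calr, Atf4 and Ddit3, belong to the unfolded protein response or feed it in secretory cells. They were chosen by name, and all 10 of them had a row among the 19065 genes of every library. The study profiled colon from C57BL/6 mice kept for 3 weeks on 1 of 2 diets, with 4 mice fed fish oil and pectin and 4 mice fed corn oil and cellulose. Each mouse gave 1 library, made from 2 sections of 50 µm cut from a paraffin block of rolled colon, and the labels name no genotype beyond the strain and no age. RNA was read with the 10x Genomics Flex assay, in which pairs of probes bind fixed RNA, are ligated and are counted as unique molecular identifiers (UMIs) for each droplet barcode. A probe set answers for each gene with its own efficiency, so levels were compared between samples and barcodes, and not between genes.

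Proteins that enter the endoplasmic reticulum are folded there by chaperones and by enzymes that join cysteines, and an overload of unfolded protein starts a set of signals known as the unfolded protein response. The sensor IRE1 cuts the Xbp1 messenger RNA so that it encodes an active transcription factor, the sensor PERK raises translation of Atf4 and, through it, transcription of Ddit3 (CHOP), and ATF6 and XBP1 raise chaperone genes. In the gut epithelium the main IRE1 is joined by a second form, IRE1 beta, which is encoded by Ern2 and is known from goblet cells, whose product, the mucin MUC2, is a very large disulfide-linked protein. Creb3l1 (OASIS) encodes a transcription factor that is held in the same membrane and is known from secretory cells.

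The sequence that IRE1 removes is part of Xbp1 itself and is shown because the assay counted the gene as a whole. It lies in exon 4 of 5 of transcript Xbp1-201, within chr11:5524255-5524328 on the plus strand of GRCm38, and the capitals mark the 26 bases at 5524279 to 5524304 that lie between the cut points.
Xbp1 site: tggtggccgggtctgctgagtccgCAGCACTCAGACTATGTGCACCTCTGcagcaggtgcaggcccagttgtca
The pair of CNGCAGN motifs that frames the segment was present in all 3 coding transcripts of the annotation. Counts per gene do not separate the cut from the uncut form, so every Xbp1 value below is the sum of both.

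The chaperone members were also looked at for the ER stress response element, which is CCAAT and CCACG with any 9 bases between them, in promoters running from 250 bases before to 50 bases after the start (RefSeq, GRCm38.p6). Promoters of 8 members were found in that table, and Ern2 and Creb3l1 were not matched. The element, searched on both strands, was in the promoters of Hspa5, Hsp90b1, Pdia6 and Calr, and in 39 of all 32851 promoters (0.119%). The windows below are shown because they set these 4 chaperone genes apart by sequence from the other matched members. Each is written on the gene's own strand with the 19 bases of the element in capitals, and windows whose capitals begin with CGTGG hold it on the opposite strand.
Hspa5, chr2:34772013-34772055 (+): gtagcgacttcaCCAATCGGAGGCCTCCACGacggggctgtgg
Hsp90b1, chr10:86705626-86705668 (-): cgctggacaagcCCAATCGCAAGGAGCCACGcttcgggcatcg
Hsp90b1, chr10:86705521-86705563 (-): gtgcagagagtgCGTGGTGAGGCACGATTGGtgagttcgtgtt
Pdia6, chr12:17266479-17266521 (+): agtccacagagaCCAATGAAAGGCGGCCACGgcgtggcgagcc
Calr, chr8:84847063-84847105 (-): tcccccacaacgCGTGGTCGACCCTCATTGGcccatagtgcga
The related ER stress response element II, ATTGG and CCACG with any 1 base between them (12 of all promoters, 0.0365%), the XBP1 element core TGACGTGG (222, 0.676%) and the C/EBP-ATF element core TGATGCAA (294, 0.895%) were in none of the 8 member promoters. The element II shares its CCACG end with the longer element. A match describes sequence alone, and no match says only that the letters are not in this window.

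Depth was low throughout, with 34758 to 245476 UMIs a library and 106 to 5180 barcodes, 8588 barcodes and 1160832 UMIs in all. The 10 members together gave 1102 UMIs, or 9.49 per 10000, and 7905 barcodes held none of them. Barcodes were divided by 4 genes of the mucus layer, Muc2, Fcgbp, Clca1 and Zg16. Mucus barcodes had at least 100 UMIs and at least 5 UMIs of those genes (217 barcodes, 174404 UMIs, median 538 UMIs). Other barcodes had at least 100 UMIs and fewer than 5 (2415 barcodes, 757129 UMIs, median 250 UMIs). The limit cuts through a continuous range, since 28 barcodes held exactly 5 mucus UMIs and 41 held 4. Mucus barcodes numbered 1, 30, 11 and 52 in fish oil/pectin mice 1 to 4. In corn oil/cellulose mice 1 to 4 they numbered 6, 12, 23 and 82. Mice with fewer than 5 barcodes in a class were left out of the fits and within-mouse comparisons of that class. This removed fish oil/pectin mouse 1 from those of the mucus class. Pooled mucus counts kept its 1 barcode of 616 UMIs.

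Both classes were mixtures. Genes of absorptive colonocytes summed to 213.5 UMIs per 10000 in mucus barcodes, against 97.2 in other barcodes, and 140 of 217 mucus barcodes held at least 5 such UMIs. Haemoglobin took 50% or more of the UMIs in 988 other barcodes, against 1 mucus barcode. Plasma cells, another secretory type rich in these genes, were represented by 59 UMIs in mucus barcodes, where 6 of 12 markers were at 0 (Mzb1, Iglc2, Derl3, Tnfrsf17, Pou2af1 and Fkbp11) and Sdc1 (25 UMIs) and Igha (16 UMIs) led. Over mice, their sum ran from 0 to 32.2 per 10000 in mucus barcodes and from 1.09 to 10.1 in other barcodes. Enteroendocrine markers came to 26 UMIs in mucus barcodes, led by Chga and Sct with 5 UMIs each, and 3 of 12 were at 0. Paneth and deep crypt secretory markers came to 14 UMIs, with Reg4 at 12, Mptx1 at 2 and 3 of 5 at 0. Libraries also shared droplets. The labels name no pools, so 2 pools of 4 libraries were inferred from the droplet barcodes that libraries shared. The first held fish oil/pectin mouse 1 with corn oil/cellulose mice 1 to 3. The second held fish oil/pectin mice 2 to 4 with corn oil/cellulose mouse 4. In these pools 189 droplet barcodes occurred in more than 1 library of a pool, where 9.38 would be expected. The pools were picked for the highest such count, the next being 137, and the 9.38 makes no allowance for that choice. Of 217 mucus barcodes, 19 shared a droplet with another library of the pool. The part of these mixtures in the results below was not tested except where a value is given.

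Ern2, the epithelial IRE1, was the member that stood highest in mucus barcodes relative to other barcodes. It gave 139 UMIs in mucus barcodes and 68 in other barcodes, or 7.97 per 10000 (95% Poisson interval 6.70 to 9.41) and 0.898 (0.697 to 1.14). Mucus barcodes thus held 67.1% of its UMIs with 18.7% of all UMIs of barcodes of this depth. By mouse, mucus barcodes had 1.15, 4.18 and 14.0 per 10000 in fish oil/pectin mice 2, 3 and 4 and 8.04, 1.66, 3.13 and 8.76 in corn oil/cellulose mice 1 to 4. Other barcodes of the same mice had 0.845, 0.0789 and 2.43 in the fish oil/pectin mice and 0.943, 0.570, 0.404 and 0.572 in the corn oil/cellulose mice. The mucus value was the higher in each of the 7 mice, although in 4 of them it rested on 1 or 2 UMIs, and fish oil/pectin mouse 4 and corn oil/cellulose mouse 4 supplied 62 UMIs each.

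In the fit over all genes, with the mouse as a block and TMM scaling, Ern2 was higher in mucus barcodes by 1.84 on the log2 scale (SE 0.40, edgeR adjusted p = 0.00020, higher in 7 of 7 mice). Of the 1081 genes tested, 64 were called (5.92%), 15 higher (1.39%) and 49 lower (4.53%), and Ern2 was the 1 member among the 15. The count filter let 3 members into this test, Ern2, Xbp1 and Creb3l1, and the other 7 were too sparse to be tested. Ern2 and Creb3l1 passed the filter mainly through the mucus sums, the class where they stood higher. Their entry is thus no support for the difference, and the adjusted p-values hold only among genes that passed. The call rested on the deepest libraries: leaving out fish oil/pectin mouse 4 gave Ern2 1.47 (edgeR adjusted p = 0.0767), and leaving out corn oil/cellulose mouse 4 gave 1.30 (edgeR adjusted p = 0.181). With no count filter the same comparison lost the call, at 1.69 (edgeR adjusted p = 0.0584). Against epithelial or colonocyte-gated other barcodes alone, Ern2 did not pass the count filter and was not tested. Fits of those 2 comparisons with no count filter, chosen after seeing the data, gave 2.12 against epithelial other barcodes (edgeR adjusted p = 0.00736) and 3.07 against colonocyte-gated barcodes (edgeR adjusted p = 4.7e-06).

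**Figure D1:**
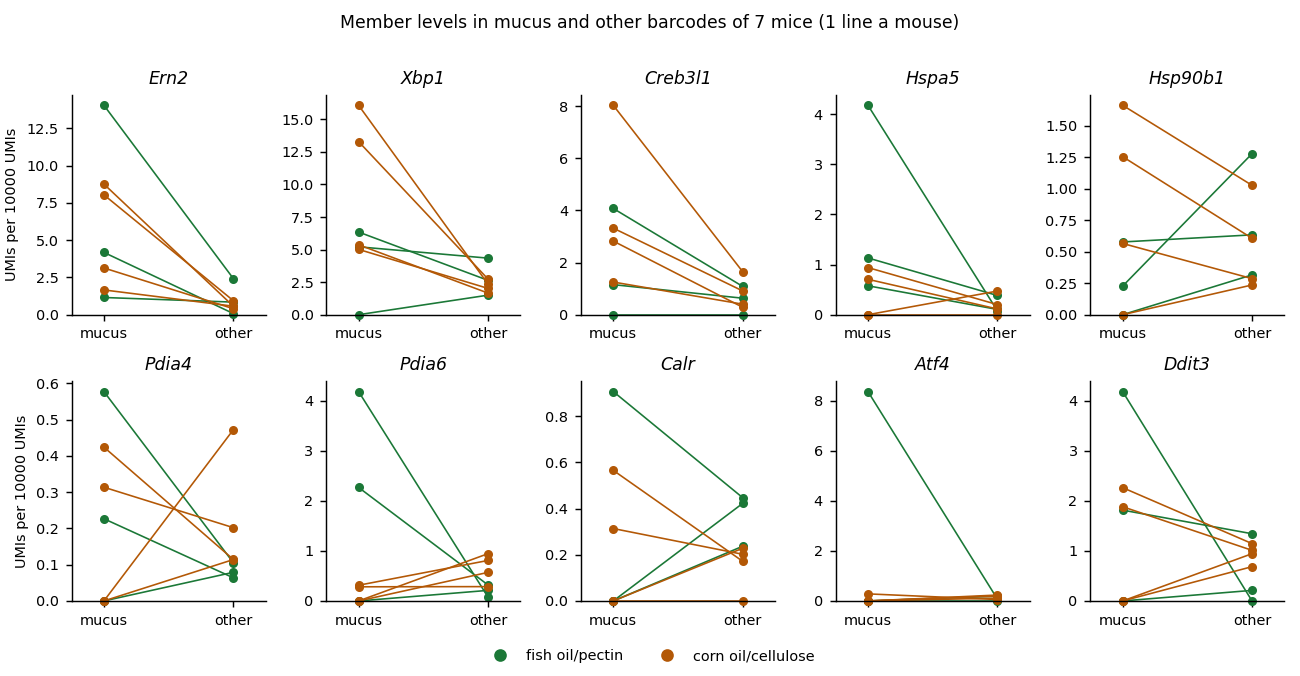
Level of each of the 10 genes in UMIs per 10000 UMIs, in mucus barcodes (left) and other barcodes (right) of the 7 mice with at least 5 mucus barcodes. Each line is 1 mouse, green for fish oil/pectin and orange for corn oil/cellulose. Ern2 lies higher on the mucus side in all 7 lines, Xbp1 in 6, and Hsp90b1 in 3.

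Creb3l1 gave 48 UMIs in mucus barcodes and 48 in other barcodes, which are 2.75 per 10000 (2.03 to 3.65) and 0.634. By mouse, its mucus level was 1.15, 0 and 4.08 per 10000 in fish oil/pectin mice 2, 3 and 4 and 8.04, 3.32, 1.25 and 2.83 in corn oil/cellulose mice 1 to 4. In other barcodes it was 0.633, 0 and 1.09 in the fish oil/pectin mice and 1.65, 0.912, 0.404 and 0.286 in the corn oil/cellulose mice. Mucus barcodes were higher in 6 mice, and fish oil/pectin mouse 3 had no UMI in either class. The fitted difference was 1.13 (SE 0.41), which did not pass the test (edgeR adjusted p = 0.0866). It passed with a limit of 3 mucus UMIs (1.24, edgeR adjusted p = 0.0406) and with fish oil/pectin mouse 2 left out (1.43, edgeR adjusted p = 0.0193). It also passed with library size alone (2.22), a scaling taken up below. In the other 14 of the 17 alternatives that tested Creb3l1 it did not pass. Over the 17 the difference ran from 0.816 to 2.22.

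Xbp1, the substrate of IRE1, gave 98 UMIs in mucus barcodes and 193 in other barcodes, or 5.62 per 10000 (4.56 to 6.85) and 2.55. Its mucus level was 6.35, 0 and 5.21 per 10000 in fish oil/pectin mice 2, 3 and 4 and 16.1, 13.3, 5.02 and 5.37 in corn oil/cellulose mice 1 to 4. Its level in other barcodes was 2.64, 1.50 and 4.34 in the fish oil/pectin mice and 2.36, 2.74, 2.02 and 1.66 in the corn oil/cellulose mice. The mucus level was thus higher in 6 of 7 mice, and fish oil/pectin mouse 3, with 11 mucus barcodes, had none.

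Whether Xbp1 differed between the classes turned on the scaling. With TMM factors, which ran from 0.111 to 4.87 over the class sums, the difference was 0.03 (SE 0.37, edgeR adjusted p = 0.978), with a 95% interval of -0.69 to 0.76. With library size alone it was 1.60 (edgeR adjusted p = 0.0226), and Ern2 (2.91) and Creb3l1 (2.22) passed too, but 323 of 1081 genes (29.9%) were then called higher. The median of all tested genes moved to 1.16 under library size alone, against -0.16 under TMM. Relative to that median, Ern2 lay higher by 2.00 with TMM and 1.74 with library size alone, Creb3l1 by 1.29 and 1.06, and Xbp1 by 0.19 and 0.43. Against epithelial other barcodes Xbp1 was at 0.77 (edgeR adjusted p = 0.165), and against colonocyte-gated barcodes at 0.79 (edgeR adjusted p = 0.172), both with the count filter. With no count filter the same 2 values were 0.74 (edgeR adjusted p = 0.982) and 0.85 (edgeR adjusted p = 0.999).

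The members that fold proteins were too sparse to be tested between the classes. Hspa5 (BiP), the main chaperone of the compartment, gave 15 UMIs in mucus barcodes and 13 in other barcodes, or 0.860 per 10000 (0.481 to 1.42) and 0.172. It was higher in mucus barcodes of 5 of 7 mice, with at most 5 UMIs in any mouse. The contrast was smaller beside epithelial barcodes alone. Of the 13 Hspa5 UMIs in other barcodes, 12 lay in those with at least 3 epithelial UMIs, at 0.431 per 10000. In the colonocyte gate Hspa5 stood at 0.434 (9 UMIs, 0.199 to 0.825), an interval that overlaps that of mucus barcodes. Hsp90b1 (GRP94), its HSP90-type partner, stood at 0.631 per 10000 (11 UMIs) in mucus barcodes and 0.660 (50 UMIs) in other barcodes, and was higher in mucus barcodes of 3 of 7 mice. Pdia6 and Pdia4, disulfide isomerases, gave 14 and 6 UMIs in mucus barcodes (0.803 and 0.344 per 10000) and 28 and 9 in other barcodes (0.370 and 0.119). Of the 14 Pdia6 UMIs, 10 came from fish oil/pectin mouse 4. Calr, a lectin chaperone of glycoproteins, gave 9 UMIs in mucus barcodes (0.516 per 10000) and 20 in other barcodes (0.264). For Pdia6, Pdia4 and Calr the Poisson intervals of the classes overlapped. Within mice, Pdia4 was higher in mucus barcodes of 4, Calr of 3 and Pdia6 of 2 of the 7.

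The members of the PERK branch were likewise not tested. Ddit3, the stress-induced factor CHOP, gave 31 UMIs in mucus barcodes (1.78 per 10000, 1.21 to 2.52) and 60 in other barcodes (0.792). Its mucus level was 0, 4.18 and 1.81 per 10000 in fish oil/pectin mice 2, 3 and 4 and 0, 0, 1.88 and 2.26 in corn oil/cellulose mice 1 to 4, so 3 mice had no UMI. Atf4, which acts before it, gave 4 UMIs in mucus barcodes and 8 in other barcodes, too few for a comparison. In the fit against colonocyte-gated barcodes without a count filter, Ddit3 differed by -0.01 (edgeR adjusted p = 0.999).

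Levels were also pooled over mice for barcodes grouped by mucus UMIs and counted per 10000 UMIs of all genes but the 4 mucus genes. The pooled level of Ern2 was 0.626 in barcodes with 0 mucus UMIs, 1.60 with 1 to 4, 5.12 with 5 to 19 and 10.9 (8.85 to 13.2) with 20 or more. Creb3l1 stood at 0.460, 1.08, 2.89 and 2.83 in the same groups, and Xbp1 at 2.34, 3.10, 5.78 and 5.87. Ddit3 stood at 0.718, 0.986, 1.71 and 1.96. Hsp90b1 stayed within 0.525 to 0.761 in all 4 groups. Hspa5 stood at 0.0921, 0.375, 0.656 and 1.09, from 5 to 10 UMIs a group. Median UMIs per barcode also grew, with 252, 240, 412 and 742 in the 4 groups. The groups below 5 mucus UMIs also held all 988 haemoglobin-led other barcodes. Those gave 0 UMIs of Hspa5 and of Ddit3 and 0.291 Xbp1 UMIs per 10000, and their part in these levels was not tested. In the group of 20 or more, Ern2 stood at 0, 0 and 15.6 in fish oil/pectin mice 2, 3 and 4 and at 3.02, 2.51 and 13.3 in corn oil/cellulose mice 2, 3 and 4, so the pooled value came mainly from mouse 4 of each diet. In the group of 5 to 19 the same mice stood at 1.31, 6.85 and 13.2 (fish oil/pectin) and at 0, 4.35 and 3.25 (corn oil/cellulose). From that group to the next, Ern2 was thus higher in 3 of these 6 mice and lower in 3.

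**Figure D2:**
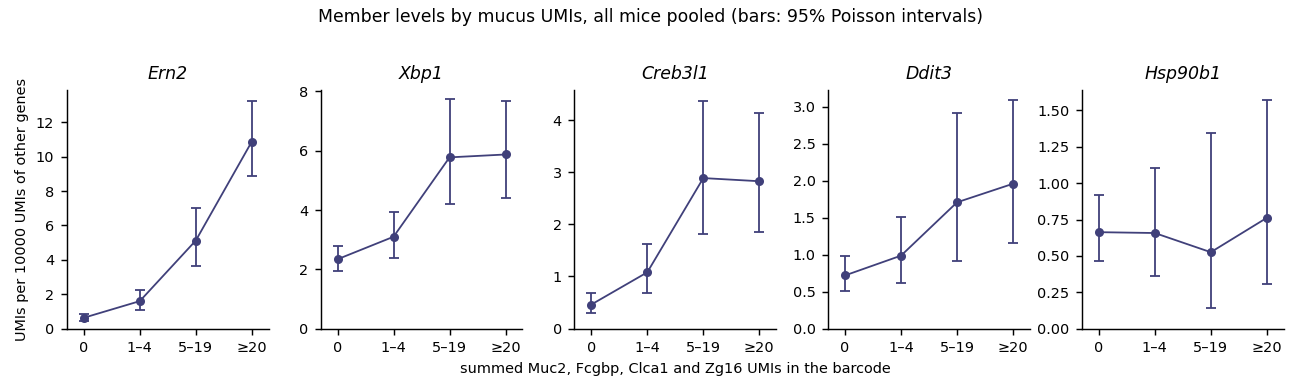
Level of 5 of the genes, in UMIs per 10000 UMIs of genes outside the mucus set, by the number of Muc2, Fcgbp, Clca1 and Zg16 UMIs in the barcode, all mice pooled. Bars are 95% Poisson intervals and cover counting error only. The pooled Ern2 level stands at 0.626 in the first group and 10.9 in the last, where mouse 4 of each diet is highest, while Hsp90b1 stays within 0.525 to 0.761.

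Mucus barcodes were also divided by their colonocyte UMIs, a split made after the values had been seen. A limit on a count also picks shallow barcodes, and the 77 with fewer than 5 colonocyte UMIs held 26498 UMIs, against 147906 in the 140 with 5 or more. Both sets pool the mice, and mouse 4 of each diet supplied 62 of the 139 Ern2 UMIs of mucus barcodes. The part of depth and of the mix of mice was not tested. In the 77 barcodes Ern2 stood at 17.7 per 10000 (13.0 to 23.6), against 6.22 (5.01 to 7.63) in the 140. Creb3l1 stood at 6.42 (3.74 to 10.3) against 2.10 (1.42 to 2.98), and Xbp1 at 9.81 (6.41 to 14.4) against 4.87 (3.81 to 6.13). Pdia6 stood at 2.64 (7 UMIs) against 0.473 (7 UMIs), and Hsp90b1 and Calr were higher in the 77 from 2 UMIs each. The other 4 members were lower in the 77, with Ddit3 at 1.13 (3 UMIs) against 1.89 (28 UMIs), Hspa5 at 0.755 (2 UMIs) against 0.879 (13 UMIs), and Pdia4 and Atf4 at 0 against 6 and 4 UMIs.

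Members met in the same barcodes as well. Of 217 mucus barcodes, 75 held Ern2, 64 held Xbp1 and 40 held Creb3l1, with 31 holding both Ern2 and Xbp1 and 23 both Ern2 and Creb3l1. No member was seen in 78 mucus barcodes, and 31 held at least 3 of the 10 genes, against 12 of 2415 other barcodes. These joint counts were not matched for depth or set against the number expected from the separate shares. Ern2 was found in 34.6% of mucus barcodes (Wilson interval 28.6 to 41.1), 1.78% of other barcodes (1.32 to 2.39) and 0.304% of haemoglobin-led barcodes, which should lack it, at median depths of 538, 250 and 290 UMIs. With every barcode thinned to 100 UMIs, the shares were 6.91%, 0.580% and 0. No barcode of either class fell below that depth. The Wilson intervals treat barcodes as independent and do not cover the spread between mice. Of the 75 mucus barcodes that held Ern2, 0, 2, 1 and 25 came from fish oil/pectin mice 1 to 4. Corn oil/cellulose mice 1 to 4 gave 1, 1, 7 and 38. Xbp1 was found in 29.5% of mucus barcodes, 6.09% of other barcodes and 0.709% of haemoglobin-led barcodes, and in 6.45%, 2.24% and 0.405% after thinning.

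Of the 43 other barcodes that held Ern2, 19 carried 1 to 4 mucus UMIs, as did 598 of all 2415 other barcodes, and the rest carried none. At least 3 epithelial UMIs were present in 29 of the 43, and in 614 of all 2415. Of the 68 Ern2 UMIs in other barcodes, 34 lay in barcodes with 0 mucus UMIs. The other barcode with the most, 9 Ern2 UMIs among 2215, came from fish oil/pectin mouse 4 and had 3 mucus UMIs. Among other barcodes gated by markers, Ern2 stood at 1.16 per 10000 in the colonocyte gate (409 barcodes), 2.12 in ungated barcodes (879) and 0.0969 in haemoglobin-led barcodes (988). No Ern2 UMI was found in the fibroblast gate (81 barcodes, 23945 UMIs), which allows up to 1.25 per 10000 at 3 counts, nor in the smaller smooth muscle, myeloid, plasma cell and adipocyte gates.

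Xbp1 was spread more widely. It stood at 7.93 per 10000 (4.78 to 12.4) in the fibroblast gate, 8.53 (7 UMIs) in the adipocyte gate, 4.34 in ungated barcodes and 3.19 (2.46 to 4.05) in the colonocyte gate, beside 5.62 in mucus barcodes. The plasma cell gate held 2 barcodes and 3 Xbp1 UMIs. Hsp90b1 stood at 3.76 per 10000 (1.72 to 7.14) in the fibroblast gate, against 0.631 (0.315 to 1.13) in mucus barcodes. The fibroblast value rested on 9 UMIs and ran from 0 to 7.12 over 6 mice. Creb3l1 stood at 1.67 (4 UMIs) in the fibroblast gate and 0.627 in the colonocyte gate. Ddit3 stood at 1.83 in the colonocyte gate and 1.78 in mucus barcodes, with overlapping intervals.

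**Figure D3:**
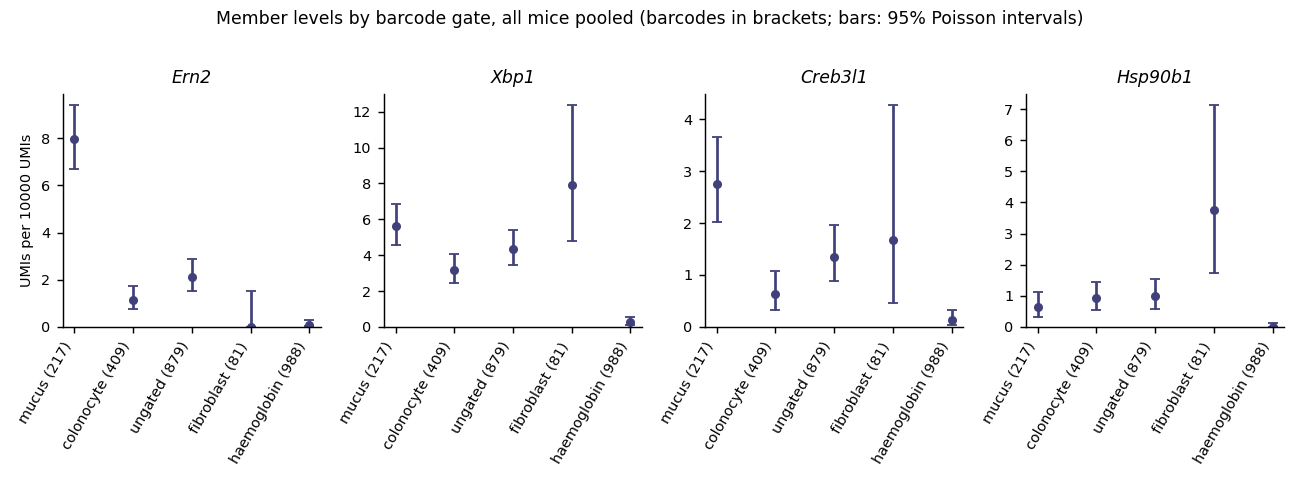
Level of 4 of the genes in UMIs per 10000 UMIs in 5 barcode gates, all mice pooled, with 95% Poisson intervals and the number of barcodes in brackets. Of the gates shown, Ern2 is highest in mucus barcodes (7.97), whereas Xbp1 (7.93) and Hsp90b1 (3.76, 9 UMIs) are highest in the fibroblast gate. The Xbp1 intervals of the fibroblast gate and of mucus barcodes overlap.

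Of the other genes of the pathway, few could be tested between the classes. Ern1, the general IRE1 and the paralogue of Ern2, gave 18 UMIs in mucus barcodes (1.03 per 10000) and 47 in other barcodes (0.621), with overlapping intervals. It was higher in mucus barcodes of 2 of 7 mice. Of 24 listed chaperones and oxidative folding enzymes, 2 were tested and 1 was called, Agr2, a disulfide isomerase that is needed for MUC2 in mice. Agr2 was higher by 1.57 (SE 0.42, edgeR adjusted p = 0.00455), with 4.62, 25.1 and 22.0 per 10000 in mucus barcodes of fish oil/pectin mice 2, 3 and 4 and 32.2, 1.66, 9.09 and 7.63 in those of corn oil/cellulose mice 1 to 4. Its level in other barcodes ran from 0.472 to 2.74, and it was higher in mucus barcodes of 7 of 7 mice. The mucus levels of 25.1, 32.2 and 1.66 rested on 6, 4 and 1 UMIs. Like Ern2, Agr2 passed the count filter mainly through the mucus sums, so its entry is no support for the difference. With fish oil/pectin mouse 4 left out Agr2 was at 1.02 (edgeR adjusted p = 0.298), and with corn oil/cellulose mouse 4 left out at 1.32 (edgeR adjusted p = 0.212).

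Sec61g, a subunit of the channel through which proteins enter the compartment, was 1 of 2 tested of 27 translocon and glycosylation genes. It was called lower by TMM at -1.40 (SE 0.44, edgeR adjusted p = 0.0288), but stood at 0.21 with library size alone (edgeR adjusted p = 0.773) and at 1.33 against colonocyte-gated barcodes with no count filter. Its mucus sums held at most 9 UMIs in any of the 7 mice. No gene was called among the 1 tested of 14 sensors and signalling genes, the 3 of 18 degradation genes, the 3 of 26 genes of traffic to the Golgi or the 2 of 24 ATF4 and CHOP targets. Eif2ak3, which encodes PERK, was at 0.67 (SE 0.41), and Nupr1, a stress-induced chromatin protein, at 0.64 (SE 0.38). Herpud1, a degradation factor induced by the response, was at 0.13 (SE 0.38). Mia3, which helps load large cargo for export, was at 0.53 (SE 0.38), and Sec31a, a coat subunit of export vesicles, at -0.61 (SE 0.43). Ufd1 and Edem1, which act in degradation, were at -0.72 (SE 0.43) and -0.33 (SE 0.40). Sec31a, Edem1 and Ufd1 changed sign with library size alone.

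**Figure D4:**
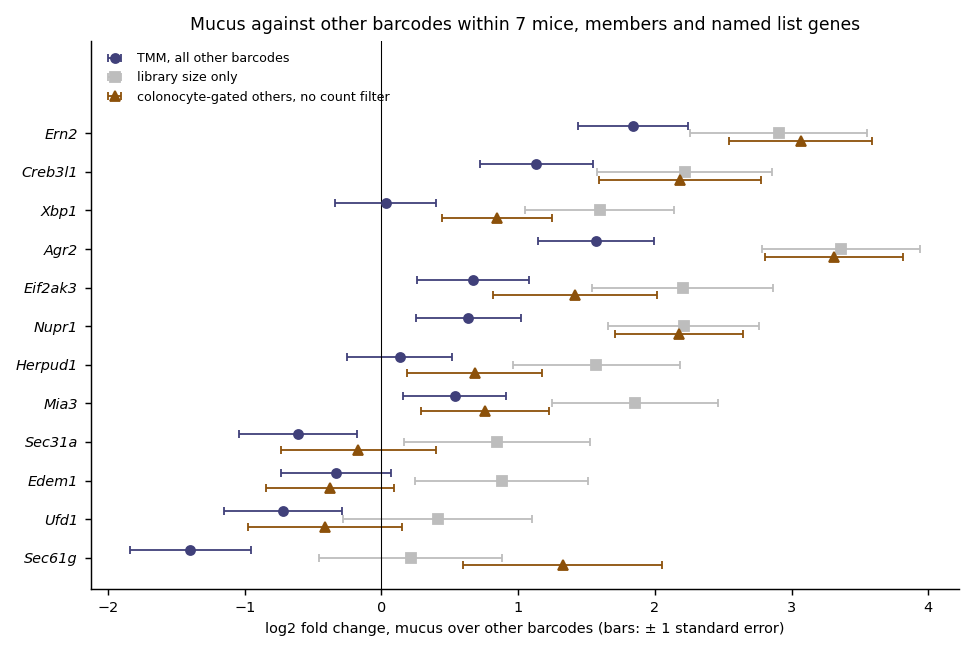
Log2 fold change of mucus over other barcodes within 7 mice, with bars of 1 standard error, for the 3 tested members and 9 genes of the other lists, under TMM scaling, under library size alone and against colonocyte-gated barcodes with no count filter. Ern2 lies at 1.84, 2.91 and 3.07, Xbp1 at 0.03, 1.60 and 0.85, and Sec61g on both sides of 0.

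Over the 14 sums of class and mouse, the genes with levels most like that of Ern2 were Slfn4 (Pearson r = 0.884), Clec2h (0.856), Agr2 (0.837), Atp2a3 (0.833) and Nupr1 (0.831), out of 1130 genes of at least 100 UMIs outside the mucus genes. For Hspa5 they were Dync1h1 (0.936), Trim14 (0.903), Hip1r (0.903), Ifih1 (0.896) and Sdha (0.885), out of 1131. These sums share libraries and depth, and the smallest of them weigh as much as the largest, so the coefficients are descriptions.

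The diets were compared to ask whether 3 weeks of fish oil and pectin altered these genes. No member was called in any class, and 7 of the 10 entered the test over all barcodes, in which 0 of 4471 genes were called (0%) by edgeR, DESeq2 or limma voom, and 108 were under an unadjusted p of 0.05 in edgeR. In such sums a smaller share of mucus barcodes and a lower level within them cannot be told apart. The spread between mice of 1 diet was wide beside any difference between diets, as the following levels show.

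Ern2 over all barcodes stood at 0.288, 1.17, 0.331 and 4.98 per 10000 in fish oil/pectin mice 1 to 4, against 0.880, 0.600, 1.47 and 2.93 in corn oil/cellulose mice 1 to 4. The groups overlapped, with the highest and the 2 lowest mice all fed fish oil/pectin. The fitted difference was 0.26 (SE 0.55, edgeR adjusted p = 0.999), with a 95% interval of -0.82 to 1.35. It was -0.70 (SE 0.61) with the pool as a covariate and -0.36 without fish oil/pectin mouse 4, so its sign turned on the pool and on that mouse. Within the pools, the difference of mean log2 levels was -1.49 in the first (1 against 3 mice) and -0.59 in the second (3 against 1).

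Xbp1 stood at 4.03, 3.95, 1.72 and 4.53 per 10000 in fish oil/pectin mice 1 to 4, against 4.66, 3.60, 3.19 and 2.73 in corn oil/cellulose mice 1 to 4. The means were 3.56 ± 1.25 and 3.55 ± 0.82 (SD, n = 4 each), and the fitted difference was 0.35 (SE 0.53, edgeR adjusted p = 0.999). Creb3l1 averaged 0.941 ± 0.797 in fish oil/pectin mice and 0.987 ± 0.187 in corn oil/cellulose mice, a fitted difference of -0.19 (SE 0.55). Fish oil/pectin mouse 3 had no Creb3l1 UMI among 151124.

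Ddit3 had the largest fitted difference among the tested members, -0.67 (SE 0.48, edgeR adjusted p = 0.999), with a 95% interval of -1.62 to 0.28. It stood at 0.863, 0.389, 0.0662 and 1.44 per 10000 in fish oil/pectin mice 1 to 4, against 0.829, 0.801, 1.35 and 1.47 in corn oil/cellulose mice 1 to 4. The 2 lowest mice were fed fish oil/pectin, and the other values overlapped. Its difference was -0.16 in the first pool and -1.35 in the second. Atf4 gave 6 UMIs over all fish oil/pectin mice and 9 over all corn oil/cellulose mice and was not tested.

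Among the folding members, Hspa5 averaged 0.283 ± 0.260 per 10000 in fish oil/pectin mice and 0.388 ± 0.328 in corn oil/cellulose mice, with 20 and 26 UMIs. Hsp90b1 averaged 0.705 ± 0.336 in fish oil/pectin mice and 0.634 ± 0.417 in corn oil/cellulose mice (38 and 31 UMIs). Pdia6 averaged 0.573 ± 0.465 and 0.518 ± 0.171 in the same order of diets (SD, n = 4 each for all 3 genes). The fitted differences were -0.01 (SE 0.67) for Hspa5, 0.49 (SE 0.56) for Hsp90b1 and 0.11 (SE 0.56) for Pdia6. Pdia4, with 6 and 12 UMIs, and Calr, with 18 and 16 UMIs, in fish oil/pectin and corn oil/cellulose mice, were not tested.

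**Figure D5:**
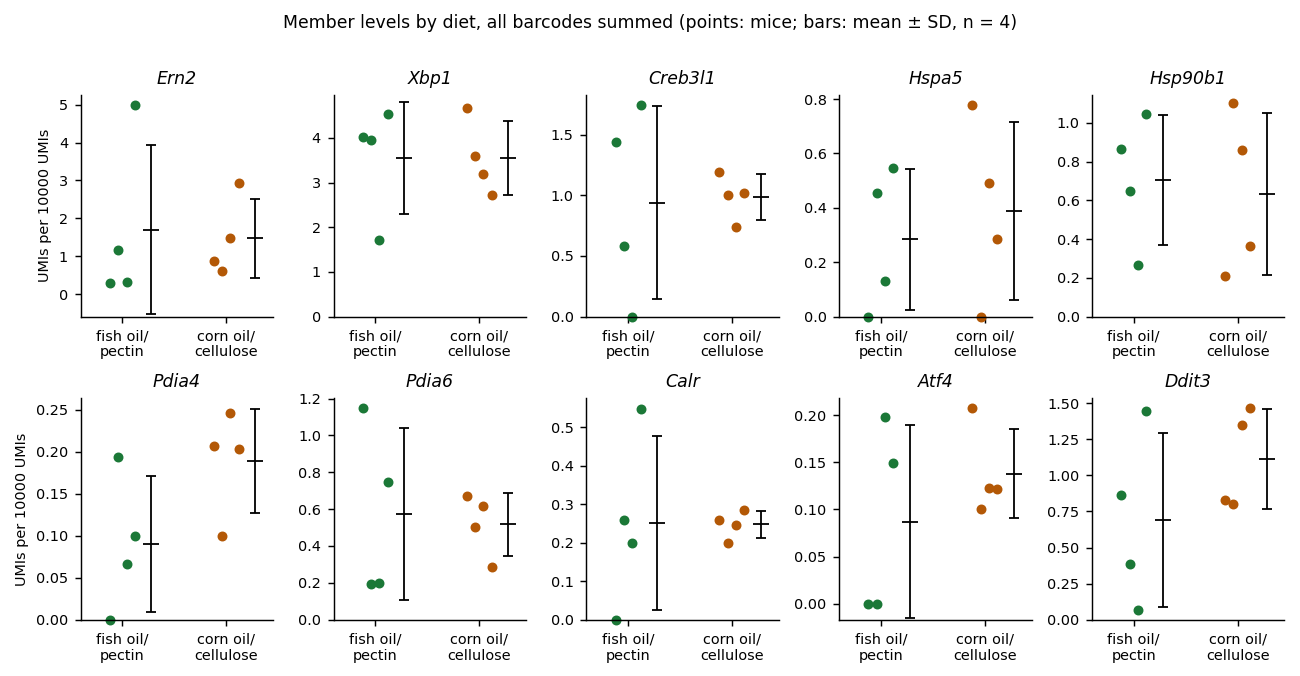
Level of each of the 10 genes in UMIs per 10000 UMIs summed over all barcodes, in fish oil/pectin mice (left, green) and corn oil/cellulose mice (right, orange). Points are mice and bars are the mean ± SD of 4 mice. The diets overlap for every gene.

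Within mucus barcodes 3 members were tested between diets and none was called, where 4 of 687 genes were (0.582%), Hbb-bs, Fabp6, Car1 and Hba-a2, which were chosen for naming after their values were seen. Ern2 averaged 6.46 ± 6.74 per 10000 in fish oil/pectin mice (SD, n = 3) and 5.40 ± 3.53 in corn oil/cellulose mice (SD, n = 4), with a fitted difference of 0.53 (SE 0.77, edgeR adjusted p = 0.9998). Leaving out fish oil/pectin mouse 4 turned it to -1.57. Xbp1 averaged 3.85 ± 3.38 in fish oil/pectin mice and 9.94 ± 5.60 in corn oil/cellulose mice, with a fitted difference of -0.31 (SE 0.82). The 2 highest of those corn oil/cellulose values came from mice with 2 and 8 Xbp1 UMIs. Creb3l1 differed by 0.23 (SE 0.69).

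In other barcodes 6 members were tested and none was called, as was none of all 2460 genes (0%) by edgeR or DESeq2, while edgeR had 66 under an unadjusted p of 0.05. The fitted differences were 0.85 (SE 0.58) for Xbp1, 0.78 (SE 0.63) for Ern2, 0.77 (SE 0.59) for Hsp90b1, 0.06 (SE 0.66) for Creb3l1, -0.70 (SE 0.59) for Ddit3 and -0.84 (SE 0.72) for Pdia6. Ern2 in other barcodes stood at 0, 0.845, 0.0789 and 2.43 per 10000 in fish oil/pectin mice 1 to 4, against 0.943, 0.570, 0.404 and 0.572 in corn oil/cellulose mice 1 to 4, so the fish oil/pectin mice held both the highest and the lowest values. The diet effect was not shown to differ between the classes: 0 of 2815 genes were called for the interaction (0%), 43 were under an unadjusted p of 0.05, DESeq2 called 0, and the 5 tested members lay between -2.24 for Hsp90b1 (SE 1.36) and 0.50 for Ddit3 (SE 1.12).

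The wider pathway lists showed the same absence of calls between diets, with none among the 78 listed genes tested over all barcodes outside the members. Sec61g was the translocon gene of smallest p (1.44, SE 0.63), Cnpy2 the chaperone gene (-1.55, SE 0.57) and Atf6 the sensor (-0.74, SE 0.56), each at an edgeR adjusted p of 0.999. Cnpy2 stood at 0, 0.194, 0.0662 and 0.349 per 10000 in fish oil/pectin mice 1 to 4, against 0.673, 0.701, 0.737 and 0.530 in corn oil/cellulose mice 1 to 4, from 50 UMIs in all. It was named only for having the smallest p of its list, and it was not called. Atf3, a stress-induced factor and the CHOP target list's gene of smallest p, had 127 of its 183 UMIs in corn oil/cellulose mouse 3. In tests on simulated counts of the same depth, 68% of genes changed by 3 on the log2 scale and 26% of those changed by 2 were recovered over all barcodes. The simulation gave every library the same gene profile and a fixed dispersion, while TMM factors of the real sums ran from 0.314 to 1.82. The shares recovered therefore do not measure the power of the real comparison.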

How the data were processed

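The deposited matrices come from Cell Ranger 8.0.0 (per the file headers). The submitters' processing notes name the builds mm10 and GRCm39 without saying what each was used for. The authors deposited whole-number UMI counts for each gene in each barcode, not normalized. Loci were looked up by gene ID in the GRCm38 annotation (GENCODE), and promoter sequences came from RefSeq (GRCm38.p6). No doublet caller was run.

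The 10 members, the other gene lists and the tests were chosen with earlier results of these data known. Named genes outside the members are, for each list, up to 4 called genes in each direction with the smallest p, or the 2 of smallest p where none was called, and for diets the 1 of smallest p. Colonocyte gates and the like needed 5 marker UMIs, epithelial other barcodes 3, and the haemoglobin gate 50% of UMIs. Levels are UMIs per 10000 UMIs, with exact Poisson intervals at 95% that cover counting error only, as do the limits from 3 counts.

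Counts were summed per mouse and class and tested with edgeR 4.0.16 (quasi-likelihood F-test, filterByExpr with a minimum count of 5, TMM, robust) in R 4.3.3, with p-values adjusted over all tested genes by Benjamini-Hochberg at 0.05. The 4 mucus genes were left out of the mucus comparison. The mouse was a block between classes, where both sums come from the same animal, and diets had no block. Alternatives used DESeq2 1.42.0, limma 3.58.1 voom, library size scaling, other limits and filters, the pool and left-out mice. The fits were tested on simulated counts. Replicates are separate mice per the labels.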

Additional observations from a re-analysis of the deposited data

Results flagged for a closer look

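In 50 groups of 4 mice, 1 value of a member was flagged as far from the others. The rule marks about 1 in 20 groups of continuous values by chance, a rate that does not hold for sparse counts. Atf4 in mucus barcodes of corn oil/cellulose mice stood at 0.283 per 10000 UMIs in mouse 4, from 2 UMIs, and was at 0 in the other 3 mice. With 3 mice at 0, any UMI in mouse 4 would have been flagged, so the flag does not mark an unusual mouse.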

How the results depend on the processing

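Of 357 refitted member differences with an adjusted p, 305 kept their direction and their side of the threshold. The number of members called between mucus and other barcodes, 1 as reported, was 3 with library size alone, 2 with a mucus limit of 3, and 0 with no count filter, against epithelial or colonocyte-gated other barcodes with the filter, or after thinning to 100 UMIs. In the last 3 settings Ern2 was too sparse to be tested. Leaving out 1 mouse at a time gave 0 to 2, with 0 without mouse 4 of either diet and 2 without fish oil/pectin mouse 2. Ern2 was at 1.69 with no count filter (edgeR adjusted p = 0.0584) and ranged from 1.30 to 3.07 over its alternatives. The cause of these changes was not tested. The comparisons with colonocyte-gated barcodes, and those without a count filter against epithelial or colonocyte-gated barcodes, were chosen after seeing the data.

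Genes called between the classes, 64 as reported, numbered 342 with library size alone, 236 with no count filter, 40 with a mucus limit of 10, 20 at 500 UMIs per barcode, 21 without haemoglobin-led barcodes, 14 against epithelial and 12 against colonocyte-gated barcodes, 30 and 41 against the same with no count filter, 12 after thinning, and 32 to 79 with 1 mouse left out. Genes called between diets in mucus barcodes, 4 as reported, numbered 2 by DESeq2, 2 by limma voom, 2 without haemoglobin and mitochondrial genes, 7 with a mucus limit of 3, 0 with no count filter, 0 with the pool, and 0 to 7 with 1 mouse left out. With no count filter, 4 genes were called between diets over all barcodes and 2 in other barcodes. With 1 mouse left out, 0 to 1 were called over all barcodes, in other barcodes and for the interaction. No member was among the calls between diets.

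Xbp1 between the classes changed sign to -0.015 with no count filter, -0.059 and -0.11 with mucus limits of 3 and 10 and -0.19 with no replicate block, and ran from -0.18 to 0.29 with 1 mouse left out. Between diets, none of the following values passed the test. Over all barcodes, Hspa5 turned to 0.013 by DESeq2, 0.43 by limma voom and 0.072 with the pool (-0.40 to 0.70 with 1 mouse left out), Creb3l1 to 0.018 with the pool (-0.43 to 0.056), Ern2 to -0.70 with the pool (-0.36 to 0.86), Xbp1 to -0.020 with library size alone, and Pdia6 to -0.034 with library size alone, -0.017 with no count filter and -0.029 at 100 UMIs per barcode (-0.18 to 0.34). In mucus barcodes, Creb3l1 turned to -0.0016 with no count filter, -0.11 with the pool, and -0.19 and -0.23 with mucus limits of 3 and 10, Ern2 to -0.39 with the pool and -0.17 with a limit of 10 (-1.57 to 1.61), and Xbp1 ran from -0.76 to 0.013 with 1 mouse left out. In other barcodes, Creb3l1 turned to -0.24 with library size alone, -0.015 without haemoglobin and mitochondrial genes and -0.0050 with no count filter (-0.27 to 0.43). The interaction ran from -1.99 to 0.79 for Creb3l1 and from -2.65 to 0.38 for Ern2 with 1 mouse left out.

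Mouse numbers did not pair the diets: the correlation of deviations of same-numbered mice was 0.191, -0.187, -0.0646 and 0.279. With a replicate block by that number, genes called in mucus barcodes numbered 0, Hspa5 over all barcodes was at 0.31 and Creb3l1 in mucus barcodes at -0.0036, and no member was called. Leaving out fish oil/pectin mouse 1 was not run where that mouse takes no part. Depth limits all of this, since 7 members were too sparse to be tested between the classes.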
